A study of Homo sapiens with 2 samples.

Results

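The regions described here are 392 promoter tiles that carried far more CpG methylation in SKNO-1 than in SKNO-siAE, out of 38446 promoter tiles tested and 99847 autosomal tiles in all. SKNO-1 is an established acute myeloid leukaemia cell line with the t(8;21) translocation, which joins RUNX1 to RUNX1T1 and gives the RUNX1-RUNX1T1 fusion protein. SKNO-siAE, written SKNO1-siAE in the sample labels, is its derivative, made by infection with a lentiviral vector (pRRLcPPT.hPGK) that encodes siAGF1 oligonucleotides against the junction of the fusion mRNA. DNA of both lines was converted with bisulfite, captured and sequenced (MCC-Seq), 1 library per line, so there are no replicates. A vector control line was not analysed here, and the silencing, the infection and the separate growth of the derivative cannot be told apart.

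A tile is a fixed window of 500 bp. The methylation level of a CpG cytosine is its methylated reads divided by all its reads, from 0 to 1, and the level of a tile is the mean over its sites. A tile was tested if both libraries had 5 reads or more at 10 or more of its sites. It was a promoter tile if it overlapped the stretch from 1500 bp upstream to 500 bp downstream of the start of a protein-coding transcript. The members were chosen by the difference itself, SKNO-1 minus SKNO-siAE, at a limit of 0.6. The size and the direction of their differences are therefore a description, and no test was made on them. Where 2 levels stand as a pair without a name, SKNO-1 comes first. Read numbers of a tile or stretch are sums over its sites, so 1 read is counted again at each CpG it covers.

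CpG islands are stretches dense in CpG dinucleotides, and they cover the starts of many human genes. In most tissues islands at gene starts carry little methylation, whatever the activity of the gene. Methylation of such an island is widely associated with a stably silent promoter, and many cancers, myeloid leukaemias among them, carry methylation at islands that are free of it in normal cells. Expression was not measured in these libraries, so nothing here says whether any of these genes was on or off.

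Members made up 1.02% of the tested promoter tiles. The opposite difference, of -0.6 or less, was found in 1852 promoter tiles (4.82%), so 0.212 member tiles were counted for each opposite one. Outside promoters, 405 of 61401 tiles (0.66%) passed the limit of 0.6. The members overlapped the promoters of 309 of 15752 tested protein-coding genes (1.96%). Both libraries had like depth over all deposited sites, with a mean of 17.7 reads per site in SKNO-1 against 17.5 in SKNO-siAE. Within the member tiles the median site depth was 16 reads in SKNO-1 against 13 reads in SKNO-siAE.

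Sequences of 11 member tiles are printed next, on the plus strand of hg19 (GRCh37), with every CpG in capitals, because these dinucleotides are what the assay reads. The stretches lie outside annotated UTRs. The first 6 come from tiles in which every read of every site was methylated in SKNO-1 while none was in SKNO-siAE.
ASCL2, chr11:2291212-2291451: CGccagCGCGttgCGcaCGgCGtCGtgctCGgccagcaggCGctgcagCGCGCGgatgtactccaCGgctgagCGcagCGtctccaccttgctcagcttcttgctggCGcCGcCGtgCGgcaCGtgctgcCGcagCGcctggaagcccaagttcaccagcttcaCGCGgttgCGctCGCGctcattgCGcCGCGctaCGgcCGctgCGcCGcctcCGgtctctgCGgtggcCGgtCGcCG
FAR1, chr11:13690001-13690200: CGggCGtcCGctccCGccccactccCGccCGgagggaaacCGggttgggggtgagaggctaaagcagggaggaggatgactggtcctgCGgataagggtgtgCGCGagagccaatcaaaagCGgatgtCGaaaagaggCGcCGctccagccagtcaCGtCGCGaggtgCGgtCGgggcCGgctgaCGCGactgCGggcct
ATP9B, chr18:76828501-76828740: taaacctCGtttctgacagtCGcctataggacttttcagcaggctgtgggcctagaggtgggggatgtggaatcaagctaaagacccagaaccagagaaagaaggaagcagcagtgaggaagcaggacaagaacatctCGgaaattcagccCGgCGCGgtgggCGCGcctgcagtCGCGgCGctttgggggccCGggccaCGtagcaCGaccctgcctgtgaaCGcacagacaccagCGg
TSHZ3, chr19:31841743-31841982: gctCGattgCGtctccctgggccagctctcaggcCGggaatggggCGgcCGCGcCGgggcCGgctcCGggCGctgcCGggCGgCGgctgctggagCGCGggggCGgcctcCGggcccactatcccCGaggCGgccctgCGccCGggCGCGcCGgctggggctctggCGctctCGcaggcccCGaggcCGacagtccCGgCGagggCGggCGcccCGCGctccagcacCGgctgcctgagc
BNIP3, chr10:133795546-133795785: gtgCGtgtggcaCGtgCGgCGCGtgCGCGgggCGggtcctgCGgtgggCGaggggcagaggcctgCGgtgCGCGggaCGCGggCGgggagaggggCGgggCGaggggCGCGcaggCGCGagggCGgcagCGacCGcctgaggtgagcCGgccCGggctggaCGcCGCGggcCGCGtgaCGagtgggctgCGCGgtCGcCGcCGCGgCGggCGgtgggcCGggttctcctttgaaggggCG
GUCY1A2, chr11:106888194-106888433: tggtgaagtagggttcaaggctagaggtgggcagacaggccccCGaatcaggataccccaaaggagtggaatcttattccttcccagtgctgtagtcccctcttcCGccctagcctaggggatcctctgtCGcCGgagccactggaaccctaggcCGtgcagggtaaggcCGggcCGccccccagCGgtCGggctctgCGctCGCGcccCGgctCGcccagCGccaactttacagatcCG
In the ASCL2 stretch, 367 to 606 bp downstream of the start, 39 sites had reads in both libraries. All had a level of 1 in SKNO-1 (215 of 215 reads, summed over sites) against 0 in SKNO-siAE (0 of 381 reads). ASCL2 encodes a basic helix-loop-helix factor of stem cells of the gut and of the trophoblast. The FAR1 stretch ends 15 bp before the start and had 153 of 153 reads methylated in SKNO-1 against 0 of 115 in SKNO-siAE. FAR1 makes fatty alcohols for ether lipids. The BNIP3 stretch holds 43 CpGs, of which 13 sites had reads in both libraries, 77 of 77 reads methylated in SKNO-1 against 0 of 104 in SKNO-siAE. BNIP3 is a mitochondrial protein of mitophagy and cell death that hypoxia induces.

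The next 4 stretches come from the tiles with the largest difference in long runs of adjacent member tiles, where the difference spread over 1500 bp or more.
ABTB3, chr12:107714001-107714240: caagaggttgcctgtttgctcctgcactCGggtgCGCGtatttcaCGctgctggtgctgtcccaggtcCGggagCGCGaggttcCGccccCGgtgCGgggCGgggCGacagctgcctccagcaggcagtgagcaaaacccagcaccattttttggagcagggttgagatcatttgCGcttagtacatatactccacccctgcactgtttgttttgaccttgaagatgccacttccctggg
ACSS3/LIN7A, chr12:81331001-81331240: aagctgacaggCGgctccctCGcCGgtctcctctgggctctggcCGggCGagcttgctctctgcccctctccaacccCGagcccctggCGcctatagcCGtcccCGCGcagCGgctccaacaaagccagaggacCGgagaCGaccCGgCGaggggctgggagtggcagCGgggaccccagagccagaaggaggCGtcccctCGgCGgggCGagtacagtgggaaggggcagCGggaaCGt
KCNN2, chr5:113698146-113698385: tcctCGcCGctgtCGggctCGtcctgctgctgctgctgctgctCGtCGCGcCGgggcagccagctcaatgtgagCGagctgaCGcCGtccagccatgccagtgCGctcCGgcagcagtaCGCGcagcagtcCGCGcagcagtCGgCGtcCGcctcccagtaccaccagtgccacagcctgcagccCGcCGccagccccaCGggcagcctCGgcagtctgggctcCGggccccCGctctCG
ANKRD18A, chr9:38620601-38620840: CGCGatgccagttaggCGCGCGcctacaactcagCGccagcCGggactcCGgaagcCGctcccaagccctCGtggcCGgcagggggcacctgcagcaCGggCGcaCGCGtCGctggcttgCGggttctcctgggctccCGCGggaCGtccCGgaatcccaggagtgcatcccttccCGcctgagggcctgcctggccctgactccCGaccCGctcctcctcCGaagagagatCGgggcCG
In the KCNN2 stretch 24 sites averaged 0.967 in SKNO-1 against 0 in SKNO-siAE (134 of 138 and 0 of 333 reads). In the ANKRD18A stretch single sites of SKNO-1 ran from 0 to 1 around a mean of 0.925, while SKNO-siAE had 0 methylated reads of 224. The last stretch belongs to CEBPA, which encodes C/EBPα, a transcription factor that granulocyte differentiation needs.
CEBPA, chr19:33794602-33794841: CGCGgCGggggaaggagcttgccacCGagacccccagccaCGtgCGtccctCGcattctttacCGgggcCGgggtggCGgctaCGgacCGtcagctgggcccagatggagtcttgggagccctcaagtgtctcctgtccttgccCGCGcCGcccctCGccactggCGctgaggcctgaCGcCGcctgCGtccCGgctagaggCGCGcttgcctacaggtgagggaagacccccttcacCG
All 40 measured sites of the CEBPA tile lie in this stretch, from -1401 to -1162 bp relative to the start, with a mean level of 0.944 in SKNO-1 against 0.0525 in SKNO-siAE.

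Over the 392 members the level in SKNO-1 had a median of 0.877, with quartiles of 0.785 and 0.948 and a range from 0.601 to 1. In SKNO-siAE the median was 0.0114, the upper quartile 0.0754 and the highest value 0.369. The median difference was 0.805. For all tested promoter tiles the median level was 0.101 in SKNO-1 against 0.302 in SKNO-siAE, with a median difference of -0.0022. The limit of 0.6 by itself keeps every member at 0.6 or more in SKNO-1 and at 0.4 or less in SKNO-siAE.

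SKNO-siAE had a level under 0.05 in 263 members (67.1%), from 0.05 to under 0.2 in 96 and of 0.2 or more in 33. No methylated read at all was seen in SKNO-siAE in 131 members, on 55 to 1828 reads per tile. If every count were a separate read, a count of 0 would allow a share of up to 0.0545 at the shallowest of these tiles. At the deepest it would allow up to 0.00164. These limits, like all intervals given here, rest on that assumption, cover counting error only and can be too narrow. A read counts at each CpG it covers. The reads carry no molecular identifiers, so copies of 1 molecule cannot be told from separate molecules.

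SKNO-1 was more varied. Its level was 0.9 or more in 172 members (43.9%), from 0.8 to under 0.9 in 114 and below 0.8 in 106. Every read was methylated in SKNO-1 in 14 members, and 9 members were complete both ways, with 1396 methylated reads of 1396 in SKNO-1 against 0 of 1461 in SKNO-siAE. These 9 tiles include those of ASCL2, FAR1, ATP9B, TSHZ3, BNIP3, GUCY1A2, CFAP92 and TTLL7. The next largest differences, from 0.990 to 0.993, were at EIF4E3 and GPR27, ZNF510, DDHD1 and C7orf50. All sites of the ASCL2 tile lay on 1 strand. Depth in SKNO-1 differed among the 9 complete tiles and was low in some. The summed reads were 50 over 10 sites at TTLL7 and 215 over 39 at ASCL2, but 246 over 18 at TSHZ3.

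The spread between sites of a tile differed with the level. In members at 0.9 or more in SKNO-1 the median SD between sites was 0.0984, and 13.5% of sites lay between 0.1 and 0.9. In members below 0.8 the median SD was 0.320, and 50.5% of sites lay between 0.1 and 0.9. A tile mean near 1 leaves little room for spread between sites, so part of this contrast follows from the grouping by level. Of all 9925 member sites, 66.9% were at 0.9 or more in SKNO-1, while 88.0% were at 0.1 or less in SKNO-siAE.

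A CpG is read separately on each strand. In the 268 members with at least 5 sites on both strands, the median gap between the strands' levels was 0.0579 in SKNO-1 against 0.0162 in SKNO-siAE. The difference between the lines was 0.6 or more on each strand alone in 207 of these 268 and 0.4 or more in 262, and the lowest value on a single strand was 0.315. No strand read alone had the opposite direction in these tiles. The same sites chose the tiles, so this agreement was largely set by the choice and is a description.

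Sites with at least 5 reads in only 1 of the libraries were not used to choose the members. In SKNO-1, 4304 such sites fell in 314 of the member tiles, with a mean level of 0.822, and 70.4% of them were at 0.9 or more. In SKNO-siAE, 2893 such sites fell in 282 member tiles, with a mean level of 0.0803, and 86.0% of them were at 0.1 or less. These sites come from the same libraries and the same stretches as the sites used, so they are further values of the same pattern and not a second measurement of it.

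Read depth was not the same in both libraries within the members. The log2 ratio of reads, SKNO-1 over SKNO-siAE, had a median of 0.21 in members and 0.00 in all tested promoter tiles. SKNO-1 had more reads in 250 members (63.8%), against 50.1% of all tested promoter tiles. Among the 14951 promoter tiles whose reads in the libraries were within 25% of each other, 123 (0.823%) passed the limit, with a median difference of 0.786. The part of read depth in the choice of the other members was not tested.

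The members lay at gene starts much as other tested promoter tiles did. The tile held a protein-coding start in 166 members (42.3%, against 47.2% of tested promoter tiles), and 301 (76.8%, against 80.2%) were near the canonical start of the gene. The other 91 were near an alternative start only. A start of a long non-coding RNA was near in 103 members (26.3%, against 19.1%). By the annotation of protein-coding genes, 261 members overlapped an exon (66.6%, against 68.3% of tested promoter tiles). Another 62 lay within introns (15.8%, against 13.7%) and 69 lay outside (17.6%, against 18.0%).

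The base composition of the members was also close to that of other promoter tiles. Their median GC content was 60.8% and their median number of CpGs 29, against 59.8% and 28 in all tested promoter tiles. An island-like composition, defined here as GC content over 55% with an observed over expected CpG ratio over 0.65, was found in 46.2% of members and 45.2% of tested promoter tiles. The opposite tiles were denser, with a median of 35 CpGs and 57.1% island-like. Tiles outside promoters that passed the limit had a median of 19 CpGs and were island-like in 19.5%.

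Short motifs were counted as plain letters on both strands. The RUNX motif TGTGGT was present in 66 members (16.8%), against 18.4% of tested promoter tiles. The SP/KLF letters GGGCGG were present in 58.7% against 59.1%, and the ETS letters CCGGAAG in 11.5% against 11.2%. The E-box CACGTG was present in 15.1% against 11.3%. The shares of the CREB/ATF letters TGACGTCA (1.28% against 1.52%), the NRF1 letters CGCATGCG (0.765% against 1.62%) and TATAAA (12.8% against 11.9%) rested on 5, 3 and 50 members. A match is a string of letters and not a bound site.

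**Figure D1:**
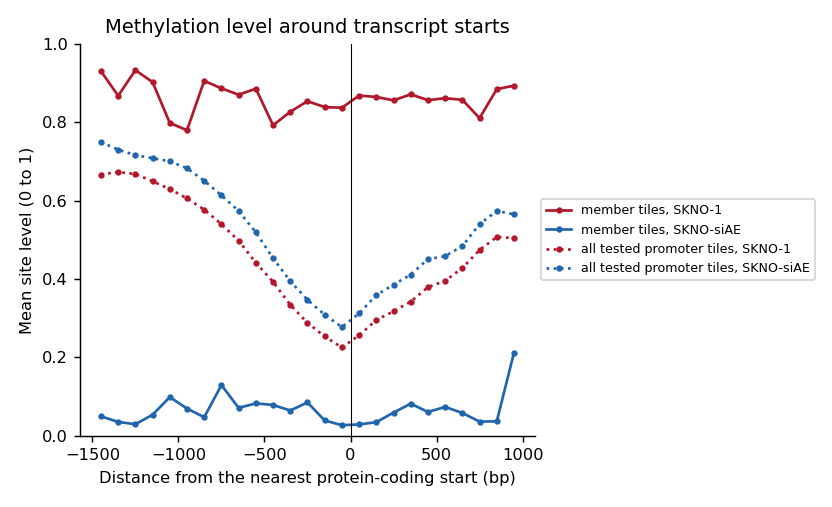
Mean site level (y axis, 0 to 1) in 100 bp bins by distance from the nearest protein-coding start (x axis, bp), for member tiles (solid) and all tested promoter tiles (dotted), SKNO-1 in red and SKNO-siAE in blue. Over all promoters both lines dip just before the start, to 0.225 in SKNO-1 against 0.278 in SKNO-siAE, and the solid lines of the member tiles lie apart at every distance because the tiles were chosen for that gap.

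Just upstream of the start, in the last 100 bp, the mean site level over all tested promoter tiles was 0.225 in SKNO-1 against 0.278 in SKNO-siAE. This is the usual dip of methylation at gene starts, and both lines showed it. In the members the mean there was 0.837 in SKNO-1 against 0.0270 in SKNO-siAE, a gap that the choice of the tiles fixed.

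Most members had no adjacent member tile. A tile that was not tested or lay outside promoters also ends a run, so a single tile need not be an isolated difference. The members formed 305 runs of adjacent tiles. Of these, 239 were single tiles, 52 were pairs, 10 had 3 tiles, 2 had 4, 1 had 5 and 1 had 6. Of the 309 genes, 83 had at least 2 member tiles and 23 at least 3.

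The longest run covered the promoter of ABTB3 on chromosome 12, from 107712001 to 107715000 (hg19). ABTB3 encodes a protein with ankyrin repeats and a BTB domain. Its 6 tiles had levels of 0.829, 0.803, 0.886, 0.902, 0.95 and 0.757 in SKNO-1, in genomic order. In SKNO-siAE the levels were 0.0143, 0, 0, 0, 0 and 0.00441. The tile just before the run had 0.736 in SKNO-1 against 0.450 in SKNO-siAE, so at the edge of the run the level of SKNO-siAE differed far more between adjacent tiles than that of SKNO-1. At another start of the same gene the order was the opposite, 0.272 in SKNO-1 against 0.908 in SKNO-siAE.

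The run of 5 tiles on chromosome 12, from 81330501 to 81333000, covered starts of LIN7A and ACSS3. LIN7A is a scaffold protein of cell junctions, and ACSS3 is a mitochondrial short-chain acyl-CoA synthetase. The 5 tile levels averaged 0.810 in SKNO-1 against 0.0449 in SKNO-siAE, each tile counting alike. Another ACSS3 start had no member tile, with tiles at 0.140, 0.676 and 0.845 in SKNO-1 against 0.392, 0.713 and 0.910 in SKNO-siAE.

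BASP1, a membrane-bound signalling protein that is also a corepressor of WT1, had a run of 4 tiles on chromosome 5 from 17216501 to 17218500. Its levels were 0.814, 0.846, 0.947 and 0.870 in SKNO-1 against 0.00855, 0.0275, 0 and 0 in SKNO-siAE. The tile before this run was low in both lines, with 0.0991 and 0.0615. KCNN2, a calcium-activated potassium channel, had a run of 4 tiles on chromosome 5 from 113697001 to 113699000, with levels from 0.838 to 0.980 in SKNO-1 against a range from 0 to 0.126 in SKNO-siAE. At a second KCNN2 start 3 tiles were high in both lines, from 0.849 to 0.955 in SKNO-1 against a range from 0.932 to 0.998 in SKNO-siAE.

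CACNA2D1, an auxiliary subunit of voltage-gated calcium channels, had 3 adjacent tiles at 0.756, 0.9 and 0.865 in SKNO-1 against 0.0888, 0.0212 and 0.0357 in SKNO-siAE. The next tile was at 0.647 and 0.769, so SKNO-siAE rose from the bottom of the scale to above SKNO-1 within 500 bp. ANKRD18A, an ankyrin repeat gene, had all 4 of its tested tiles among the members, with levels from 0.824 to 0.942 in SKNO-1 against a range from 0 to 0.0791 in SKNO-siAE. Among the runs of 3 tiles, those of TRIP6, ADAMTS1 and FOXN4 had a level of 0 in SKNO-siAE throughout, with means over the 3 tiles of 0.946, 0.846 and 0.778 in SKNO-1. The other 2 of the 5 tested TRIP6 tiles had the opposite difference, down to -0.985. These 3 runs were singled out after their values were seen.

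Levels were also taken in tiles beside the runs. A tested promoter tile next to a run is below the limit by the choice itself, so some drop there was fixed. In the 326 tiles next to a run with at least 5 shared sites, the median was 0.701 in SKNO-1 against 0.0728 in SKNO-siAE. Taken tile by tile, the median difference was 0.249 there, 0.00601 at 2 tiles away and 0 at 3. Next to a run, SKNO-1 was higher by 0.2 or more in 55.2%. At 2 tiles away that share was 28.6%, and at 6 tiles away 15.1%. The median of SKNO-siAE climbed to 0.516 at 3 tiles and 0.882 at 6 tiles, while SKNO-1 stayed between 0.630 and 0.842. These medians cover a mixture, since at 3 tiles away 30.2% of tiles were below 0.1 in both lines and 26.8% were at 0.8 or more in both.

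Of the adjacent tiles, 23.3% were below 0.1 in both lines and 7.67% were at 0.8 or more in both. Of the 278 member genes with at least 2 tested tiles, 18 had members only, 118 had a tile below 0.1 in both lines and 82 had a tile at 0.8 or more in both. The opposite difference occurred at another tile of 13 of these genes. These counts take in tiles at all annotated starts of a gene, some far from the member, as at KCNN2. They do not say how much of a single promoter differed.

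Members that encode transcription factors of development were 11 of 303 tested genes of that class (3.63%, against 1.96% of all tested genes) and 16 of 1195 tiles (1.34%, against 1.02%), with the opposite difference in 50 tiles (4.18%, against 4.82%). The class was taken from a list of symbols that leaves out other members of this kind, among them HLX, NR2F2 and TSHZ3. In the list were ASCL2, FOXN4, HES4, HOXA11, KLF7, KLF15, OLIG2, PBX3, TCF4 and TFAP2A.

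TFAP2A encodes AP-2α, a factor of neural crest and skin. It had 23 tested promoter tiles, across its several annotated starts. Its 2 members had 0.964 and 0.922 in SKNO-1 against 0.0110 and 0.00174 in SKNO-siAE. The tile beside them fell just short, with 0.637 and 0.0418. At 16 of the 23 tiles both lines were at 0.8 or more, so most of the tested region around them was methylated in both.

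OLIG2, a basic helix-loop-helix factor of oligodendrocytes on chromosome 21, had a member tile over its start at 34398001 to 34398500. Its level was 0.896 in SKNO-1 (282 of 303 reads) against 0 in SKNO-siAE (0 of 525 reads). The 525 are summed over 25 sites, and the upper limit of 0.00571 holds only if each was separate. The tile upstream was high in both lines, with 0.879 and 0.697. The tile downstream was low in SKNO-siAE and partly methylated in SKNO-1, with 0.283 and 0.00168.

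Genes of blood cells were 5 of 169 tested (2.96%), namely BCL11B, CEBPA, ELANE, TNFRSF4 and TNFRSF8, against 1.96% of all tested genes. By tiles they were 6 of 472 (1.27%, against 1.02% of all tested promoter tiles). The opposite difference was found in 41 of these 472 tiles (8.69%, against 4.82%). The member tile of CEBPA, at 33794501 to 33795000 on chromosome 19, had 652 of 674 reads methylated in SKNO-1, a pooled share of 0.967 (95% Wilson interval 0.951 to 0.978). In SKNO-siAE 32 of 540 reads were methylated, a share of 0.0593 (0.0423 to 0.0825). Both intervals treat the reads summed over 40 sites as separate and can be too narrow. Closer to the gene the levels in SKNO-1 were lower, with 0.339 in the adjacent tile and 0.0134 in the tile after it, against 0 in SKNO-siAE at both. A tile past the start had 0.271 and 0.0128. The CEBPA member lay farthest upstream of the tested tiles, and it is outside the annotated protein-coding transcripts.

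ELANE encodes neutrophil elastase, a protease of the granules of myeloid cells. Both of its tested tiles were members, with 0.824 and 0.881 in SKNO-1 against 0.141 and 0 in SKNO-siAE. The depth there was low, with 97 and 103 reads in SKNO-1 against 160 and 55 in SKNO-siAE. The 55 are summed over 11 sites, so fewer separate reads may lie behind them. The limit of 0.0545 for 0 of 55 is then too low. BCL11B, a zinc finger factor of T cells, had 0.992 in SKNO-1 against 0.0800 in SKNO-siAE in its member tile, and 0.545 and 0.00102 in a neighbouring tile.

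TNFRSF8 encodes CD30 and TNFRSF4 encodes OX40, both receptors of activated lymphocytes. Their tiles had smaller differences, with 0.912 and 0.228 for TNFRSF8 and 0.757 and 0.0699 for TNFRSF4. On the plus strand alone the TNFRSF8 difference was 0.335, the lowest value of any named tile under the other ways of counting tried here.

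Of 82 tested tumour suppressors and genes known from methylation studies of leukaemia, 5 had a member tile (6.10%), the largest share by genes of the 19 gene classes counted. Among them were BNIP3, CEBPA, OLIG2 and WT1, and the 5 tiles of the class were 1.59% of its 314 tested tiles, against 1.02% of all tested promoter tiles. By tiles the class came after zinc finger genes (2.39%), solute carriers (1.86%) and ion channels (1.69%). CEBPA and OLIG2 each count in another class too. The opposite difference was found in 19 of the 314 tiles (6.05%, against 4.82%), at 13 genes.

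WT1 encodes a zinc finger factor that acts in the kidney and is often expressed in acute myeloid leukaemia. Its member tile, at 32455001 to 32455500 on chromosome 11, was almost all intron and had 0.976 in SKNO-1 (740 of 752 reads) against 0.0698 in SKNO-siAE (52 of 519 reads). The adjacent tile had 0.658 and 0.0812. Of its 7 tested tiles, 2 were below 0.1 in both lines and 3 were at 0.8 or more in both.

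Chromatin regulators were 3 of 131 tested genes (2.29%, against 1.96%) and 5 of 442 tiles (1.13%, against 1.02%), with the opposite difference in 15 tiles (3.39%, against 4.82%). The KDM2B tile, near an alternative start of this H3K36 demethylase, had 0.938 in SKNO-1 against 0 in SKNO-siAE (121 of 132 and 0 of 168 reads). Of the 12 tested KDM2B tiles, 5 were at 0.8 or more in both lines and 3 below 0.1 in both. CBX8, a Polycomb subunit, had member tiles at 0.837 and 0.824 in SKNO-1, on 2117 and 474 reads, while SKNO-siAE had 0 methylated reads of 842 and of 249. Its other 6 tested tiles included 4 that were below 0.1 in both lines. SIRT7, a nuclear deacetylase, had 2 member tiles. The one shared with MAFG had 0.976 in SKNO-1 against 0.00468 in SKNO-siAE, and the other, close to the limit, had 0.969 and 0.357.

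Ligands and receptors of developmental signalling were 3 of 134 (2.24%, against 1.96% of all tested genes), and each had 1 member tile. By tiles they were 3 of 403, which at 0.744% is below the 1.02% of all tested promoter tiles. The opposite difference was found in 40 of the 403 (9.93%, against 4.82%). PTCH1, the receptor of Hedgehog ligands, had 0.962 in SKNO-1 against 0 in SKNO-siAE in an intron tile (425 of 436 and 0 of 272 reads), and another tile at 0.542 and 0. FZD3, a WNT receptor, had 0.737 and 0, while the tile just upstream was at 0 and 0.0113. FGF10, a growth factor made by mesenchyme, had 0.903 and 0.193.

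Zinc finger genes, taken by their symbols many of them KRAB repressors of transposable elements, were the class with the most member genes. They were 28 of 571 tested genes (4.90%, against 1.96% of all tested genes) and 35 of 1463 tested tiles (2.39%), against 1.02% of all tested promoter tiles. They made up 8.93% of the members and 3.81% of all tested promoter tiles. The opposite difference was found in 94 of the same 1463 tiles (6.43%), against 4.82% of all tested promoter tiles, so both shares were above those over all promoter tiles.

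The ZNF510 tile had 682 of 684 reads methylated in SKNO-1 (level 0.996) against 3 of 722 in SKNO-siAE (level 0.00376), and the tile upstream had 0.982 and 0. ZNF814 had 0.977 and 0.0137. ZNF20 had 3 adjacent tiles at 0.975, 0.961 and 0.904 in SKNO-1 against 0.0208, 0.00309 and 0.263 in SKNO-siAE. The tile shared by ZNF568 and ZNF829, which are transcribed in opposite directions, had 84 sites, the most of any member, with 2311 of 2412 reads methylated in SKNO-1 against 13 of 1911 in SKNO-siAE. Zinc finger genes on chromosome 19 lie in clusters of related copies, so their tiles are not independent of each other.

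Ion channels and neurotransmitter receptors were 6 of 243 genes (2.47%, against 1.96%) and 12 of 709 tiles (1.69%, against 1.02%), with the opposite difference in 37 tiles (5.22%, against 4.82%). Solute carriers were 8 of 287 genes (2.79%) and 14 of 754 tiles (1.86%), with the opposite difference in 42 tiles (5.57%). Of SLC symbols this class took those whose family number is followed by the letter A, so it leaves out SLC35F2, which also had a member tile. GRM8, a metabotropic glutamate receptor, had 0.918 in SKNO-1 against 0 in SKNO-siAE over its start, while another of its tiles was at 0 and 0.0117. KCNJ2, an inward rectifier potassium channel, had 0.909 and 0.0362, with the 2 tiles upstream at 0.876 and 1 in SKNO-1 against 0.966 and 1 in SKNO-siAE. SLC16A3, the lactate exporter MCT4, had 0.988 against 0.0147 in the tile of largest difference, and SLC8A1, a sodium and calcium exchanger, 0.933 against 0.00679. The tile of SLC35A4 and APBB3 had 0.816 against 0.0012, and SLC7A5, a transporter of large neutral amino acids, 0.935 against 0.144.

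Kinase and phosphatase symbols gave 6 of 284 genes (2.11%, against 1.96%) and 9 of 889 tiles (1.01%, against 1.02%), with the opposite difference in 46 tiles (5.17%, against 4.82%), all near the shares over all promoters. Of the 6 genes, 2 are neither kinases nor phosphatases and were caught by their letters, the phosphodiesterase PDE4C among them. MAP3K13, a kinase upstream of JNK, had 0.978 and 0.00122 on 2202 and 1147 reads. The kinases TNIK and CDK14 had 0.869 and 0.882 in SKNO-1 against 0.0253 and 0.117 in SKNO-siAE.

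GTPase genes were 4 of 247 (1.62%) and ubiquitin genes 3 of 338 (0.888%), both below the 1.96% of all tested genes. By tiles they were 0.55% and 0.336%, against 1.02% of all tested promoter tiles. The opposite difference was found in 49 of 727 tiles of GTPase genes (6.74%) and 36 of 894 tiles of ubiquitin genes (4.03%), against 4.82%. The values of the GTPase genes were spread out, from 0.948 and 0.0381 at the tile of RAB39A and SLC35F2 to 0.611 and 0 at RAC3. ARHGEF3 and RASGRF1 had more methylation than these in SKNO-siAE, with 0.300 and 0.246. The ubiquitin genes RNF208, RNF32 and USP39 had differences from 0.640 to 0.707.

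Ribosomal protein symbols gave 3 of 87 genes (3.45%, against 1.96% of all tested genes), of which RPS6KA2 is a kinase caught by its letters. By tiles they were 3 of 268 (1.12%, against 1.02%), and as many had the opposite difference (1.12%, against 4.82%). RPL22 had 0.680 in SKNO-1 against 0.00186 in SKNO-siAE in its member tile, downstream of a start, while the tile upstream was at 0.00167 and 0. RPS2 had 0.886 and 0.124, with 3 of its other tiles below 0.1 in both lines. Another RPL22 tile had the opposite difference and a larger one, 0.00971 and 0.838. Tiles of both genes were also partly methylated in SKNO-1, with 0.628 and 0.352 at another RPL22 tile and 0.443 and 0.0148 at the RPS2 tile next to the member. Interferon response genes gave 1 of 45 (2.22%, ISG15) and imprinted genes 2 of 42 (4.76%, MKRN3 and ZNF331), against 1.96% of all tested genes. Extracellular matrix genes gave 2 of 180 (1.11%), mitochondrial genes 2 of 199 (1.01%) and histones 1 of 74 (1.35%). The opposite difference was found in 44 of 434 tiles of extracellular matrix genes (10.1%, against 4.82%), the highest such share of the 19 classes. The lists of germline genes (63 tested) and cadherins (87 tested) held no member, but the germline list is short, and the members include germline genes outside it, such as ZP3 of the egg coat and TEX22, both picked after their values were seen.

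The members with the most reads in both libraries have narrow intervals, but these treat counts of 1 read at several sites as separate. UBLCP1, a phosphatase of the proteasome, had 2162 of 2306 reads methylated in SKNO-1, a pooled share of 0.938 (95% Wilson interval 0.927 to 0.947), and 20 of 2184 in SKNO-siAE, a share of 0.00916 (0.00594 to 0.0141). The tile of TUBGCP2 and ZNF511-PRAP1 had 1672 of 1723 and 41 of 1593. Others of this depth were partly methylated in SKNO-1. The histone gene H4C4 had 1274 of 2013 reads methylated in SKNO-1, a share of 0.633 (0.612 to 0.654), against 0 of 1614 in SKNO-siAE, and ZNF461 had 1177 of 1932 against 10 of 1868. ZNF234 lay between these, with 1830 of 2220 against 18 of 1649. Histone H4 genes are near-identical copies, so reads of H4C4 could be misplaced between them.

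The limit of 0.6 did not fall at a gap. The 3 members just inside were PHF24 (difference 0.6005), PLD6 (0.6006) and TRPM2 (0.6011), and the 3 tiles just outside were ZNF300 (0.5999), PTPRCAP (0.5984) and EYA1 (0.5959). From 0.55 to 0.6 there were 64 promoter tiles, and from 0.6 to 0.65 there were 59. UBXN8, the gene named in the title of the series, had no member. Of its 4 tested tiles, 2 were at 0.440 and 0.522 in SKNO-1 against 0.00353 and 0.161 in SKNO-siAE, differences of 0.436 and 0.361. The other 2, at another start shared with GSR, were nearly unmethylated in both lines, with 0.00483 and 0.0163 in one and 0.0286 and 0 in the other.

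The share of members varied by chromosome, from 0.35% of tested promoter tiles on chromosomes 13 and 22 to 2.82% on chromosome 21 (13 of 461). Chromosome 21 holds OLIG2, TRPM2, ADAMTS1 and ADAMTS5 among its members. Chromosome 19 had the most members, 35 of 2841 (1.23%). The median log2 ratio of reads in tested promoter tiles also varied by chromosome, from -0.47 on chromosome 13 to 0.44 on chromosome 15, and its part in these shares was not tested.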

How the data were processed

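Genomic DNA of SKNO-1 and SKNO-siAE was treated with bisulfite, captured and sequenced as paired reads of 125 bases. The submitters' processing notes name cutadapt 1.4.2 and BSMAP 2.73 and hg19. Each deposited table holds raw counts of methylated and of unmethylated reads per CpG cytosine, kept apart by strand and not normalized by the authors. The deposited tables held 4713346 and 4694016 sites with 83620068 and 82164216 reads, summed over sites, for SKNO-1 and SKNO-siAE.

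Levels, tiles and promoters were computed with pandas 2.3.3 as defined in the report, from sites that had 5 or more reads in each library, and Wilson intervals with statsmodels 0.14.6. The GRCh37 genome gave the sequences, and GENCODE release 44, lifted to that build, the transcript starts. All 3125690 autosomal shared sites fell on the C or G due to their strand. Tile calling was tested on simulated reads. With 1 library per line no test was made.

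Members and gene lists were chosen with earlier results of these data known. Genes were named by rule: the 12 largest differences, the 6 longest runs, all members of the blood, tumour suppressor, chromatin and signalling lists, up to 4 genes of other classes with at least 3, the 6 deepest tiles, the 3 tiles on each side of the limit, and UBXN8 and CEBPA. Gene classes followed symbols or symbol lists and are not complete, and chromosome 21 genes, runs of 3 tiles and members listed only by name were chosen after their values were seen. Some genes under this rule are not reported here.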

Additional observations from a re-analysis of the deposited data

How the results depend on the processing

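With 1 library per line, no library could be left out. No paired analysis was possible because each line has 1 library and no replicate number. The results were recomputed under 13 alternatives. The members numbered 392 as reported, and 412 with pooled reads, 495 with merged strands, 419 with tiles shifted by 250 bp, 427 and 416 on the plus and the minus strand alone. At least 10 reads per site gave 238 tiles, of which 12.2% had a zinc finger gene. At least 20 sites gave 210 tiles in 196 genes with a zinc finger share of 12.4%, and at least 5 sites gave 468 genes. Tiles of 250 bp gave 808 tiles in 556 genes (1.19% of tested). Limits of 0.5 and 0.7 gave shares of 1.38% and 0.739% and median differences of 0.729 and 0.863. The plus strand alone gave a share of 1.15%. Tiles with reads within 25% gave 123 tiles in 116 genes, a share of 0.823%, a median difference of 0.786 and a zinc finger share of 12.2%. These changes in count follow from how many tiles each alternative tests or passes. The cause of the other shifts was not tested. The zinc finger share of all tiles tested was not counted under the alternatives, so the shifts in that share cannot be assigned to the members. Of 291 values for 69 named tiles, none changed sign, and 63 moved by more than their counting interval. These values come from the same libraries that chose the tiles, so a change of sign was unlikely from the outset.

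Single sites had 5 reads or more, so their levels are coarse, and values rest on means over at least 10 sites. No interval here covers differences between cultures of the same line.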
